A study of Mus musculus with 47 samples.

Results

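The genes described here encode the enzymes that turn arachidonic acid into prostaglandin E2 and prostaglandin D2. They were chosen by their role in that pathway, with earlier results of these data known. They make up 7 of the 14221 genes in the deposited table of bulk RNA-seq counts, Ptgs1, Ptgs2, Ptges, Ptges2, Ptges3, Ptgds and Hpgds. Ptgs2 was selected on its rise on Day 1, so its Day 1 values are given as a description with no test, and so is any difference from Day 1. All 7 genes were found in the table and all 7 passed the filter on low counts, which removed none of the 14221 genes. The smallest total of a gene in the deposited table was 307 counts over the 47 libraries. Genes with fewer counts are absent from it and from the shares of all genes given below.

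Cyclooxygenases convert arachidonic acid, released from membranes by phospholipases, into prostaglandin H2. Ptgs1 encodes the form that most tissues make at a steady level, and Ptgs2 the form that inflammatory signals and growth factors induce. Terminal synthases then make prostaglandin E2, a mediator of fever in the hypothalamus, or prostaglandin D2, a sleep-promoting lipid that the brain and its coverings produce in quantity.

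Male ob/ob mice, which lack functional leptin, were injected into a cerebral ventricle, and mRNA libraries made from total RNA of the hypothalamus on Day 1, 5 or 42 were sequenced, with 1 mouse per library. All mice are labelled as 11 weeks old. FGF1-treated mice received 3 µg of fibroblast growth factor 1, and control mice received vehicle and were pair-fed to the FGF1 mice. There were 10 FGF1 and 4 non-diabetic vehicle mice on Day 1, 9 FGF1, 7 non-diabetic vehicle and 7 diabetic-labelled vehicle mice on Day 5, and 5 FGF1 and 5 non-diabetic vehicle mice on Day 42. The names non-diabetic and diabetic-labelled follow the deposited labels. The paper describes the injected ob/ob mice as diabetic and left out mice that it did not consider diabetic. Within each day all libraries share 1 preparation code in the deposited sample sheet, and effects of the day and of the preparation cannot be told apart. FGF1 was therefore compared with vehicle within a day, to ask which members differ after treatment. On Days 1 and 42 the only controls are labelled non-diabetic, and the FGF1 labels name no such state. Effects of treatment and of a difference in that state cannot be told apart there.

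Library totals ran from 27370020 to 47082403 counts on Day 1 apart from 1 library, from 7579695 to 30009258 on Day 5 and from 19416026 to 43934003 on Day 42. The exception, mouse 1 of the Day 1 FGF1 group, had 1243280 counts and 539 genes at 0, and its Ptgs2 value rests on 3 counts. Mouse 5 of the Day 42 FGF1 group stood apart in tissue markers. Its summed markers of cortical and hippocampal excitatory neurons reached 817.7 normalized counts, against 47.3 to 115.9 in the other 4 mice of the group. Its choroid plexus markers reached 204.5 against 26.2 to 39.7, and its hypothalamic neuron markers 495.6 against 777.6 to 1323. All 12 hypothalamic neuron markers were in the table with counts in each library, and Pmch was the most abundant of them. A normalized count here is a CPM (counts scaled to the library size) with TMM factors, which correct for differences in library composition.

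The order of the members' levels was compared per kilobase of exon. In Day 1 vehicle mice, Ptgds stood highest at 615.3 ± 139.4 normalized counts per kilobase (SD, n = 4). Ptges3 followed at 41.8 ± 7.49, Ptges2 at 4.01 ± 0.889 and Ptgs1 at 3.04 ± 0.382. Hpgds at 1.38 ± 0.254, Ptges at 1.17 ± 0.311 and Ptgs2 at 0.136 ± 0.0652 were the lowest. The ranges of Ptges2 and Ptgs1 overlapped, as did those of Hpgds and Ptges, and the other neighbours in this order did not. In Day 1 FGF1 mice Ptges, at 8.11 ± 4.92 per kilobase (n = 10), took rank 3 and Ptgs2, at 3.13 ± 2.46, took rank 6, and the ranges of Ptges, Ptges2, Ptgs1, Ptgs2 and Hpgds each overlapped the next in order. Ptgds and Ptges3 kept the first 2 places in each of the 7 groups, with ranges that did not overlap each other.

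**Figure D1:**
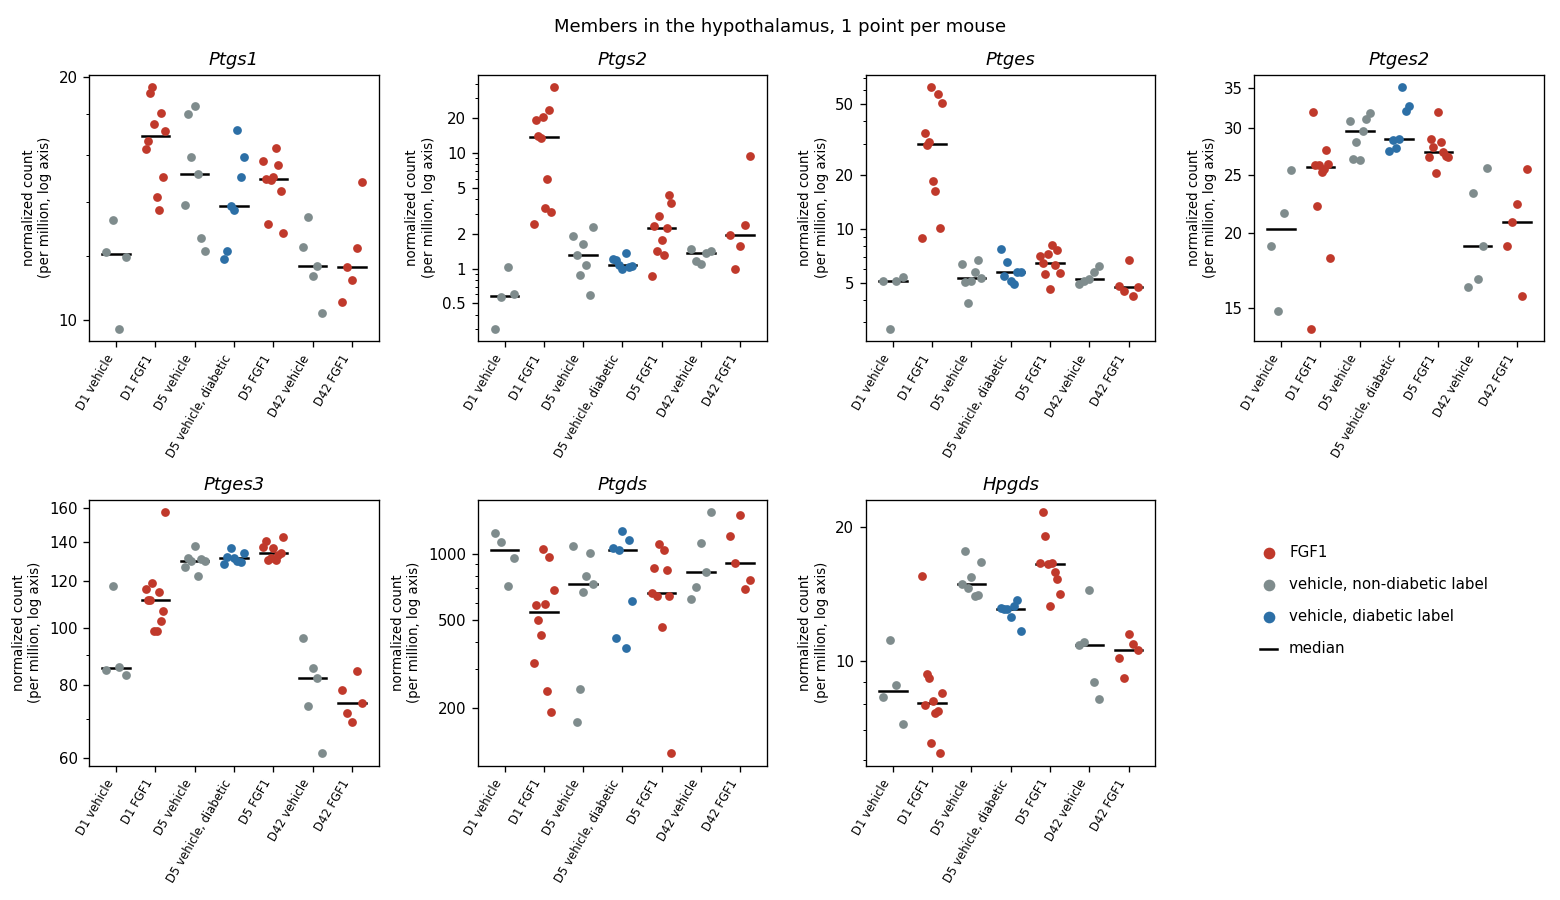
Each panel plots 1 member, with the 7 groups along the horizontal axis and the normalized count on a log axis, 1 point per mouse and a black line at the median. Day 1 FGF1 mice lay at 2.44 to 37.4 for Ptgs2 and 8.96 to 62.5 for Ptges, above the 4 Day 1 vehicle mice in both panels.

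On Day 1, FGF1 mice had more RNA of Ptgs1 and Ptges than vehicle mice. Of the 6 members other than Ptgs2, 2 were past the thresholds, which were an edgeR adjusted p below 0.05 together with a log2 fold change beyond 0.5 in either direction. Both were higher, 2 of 6, where 19.5% of all genes tested passed in either direction, 11.5% higher and 8.05% lower. The FGF1 and vehicle mice did not overlap for those 2 of 6 members, against 14.4% of all genes. The median log2 fold change of the 6 was 0.30, beside 0.01 for all genes.

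Ptgs1 read 12.1, 13.3, 9.75 and 12.0 normalized counts in the 4 Day 1 vehicle mice. In the 10 FGF1 mice it ran from 13.7 to 19.5 with a median of 16.9. All 10 FGF1 mice were above the highest vehicle mouse. The log2 fold change was 0.51, a fold of 1.42 (95% confidence interval of the log2 value 0.29 to 0.72, edgeR adjusted p = 0.000111, two-sided exact permutation p = 0.001, the smallest that 10 against 4 mice can give). The fold lay at the threshold of 0.5, and the call was lost under 4 alternatives, with log2 fold changes of 0.46 in DESeq2, 0.46 with DESeq2 size factors, 0.35 after quantile normalization and 0.49 with a minimum of 10 counts in every library. It was also lost without FGF1 mouse 3, 4, 5, 8 or 10, at 0.48, 0.48, 0.50, 0.49 and 0.50 in that order, and without vehicle mouse 3, at 0.43. On the later days the groups overlapped. On Day 5 Ptgs1 ran from 12.8 to 16.4 in the FGF1 mice (median 14.9), from 12.2 to 18.4 in the non-diabetic vehicle mice (15.2) and from 11.9 to 17.2 in the diabetic-labelled ones (13.8). Its log2 fold change was −0.04 (edgeR adjusted p = 0.911) against the first vehicle group and 0.05 (0.933) against the second. The former changed sign, to 0.0019 with the vehicle groups merged, to 0.0018 in a fit of Day 5 alone without the 2 deepest FGF1 libraries and to 0.0029 and 0.0094 without non-diabetic vehicle mouse 2 or 4. On Day 42 Ptgs1 read 10.5, 11.6, 11.2, 12.3 and 14.8 in the FGF1 mice and 12.3, 13.4, 11.3, 11.7 and 10.2 in the vehicle mice. That day its log2 fold change was 0.03 (edgeR adjusted p = 1), and it changed sign without FGF1 mouse 5, at −0.05, and without vehicle mouse 5, at −0.015.

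Ptgs2 read 0.302, 0.565, 1.02 and 0.602 normalized counts in the 4 Day 1 vehicle mice, from 11 to 44 raw counts. In the 10 FGF1 mice it ran from 2.44 to 37.4, with a median of 13.8. FGF1 mouse 10 was the highest, and mice 1, 6 and 9 were the lowest of the FGF1 group at 2.44, 3.32 and 3.09. Each of these was above the highest vehicle mouse. As a description of the value that chose the gene, the log2 fold change was 4.56. It was 4.62 without mouse 1 and 2.87 after quantile normalization. Per kilobase of exon, the ratio of Ptgs2 to Ptgs1 within a mouse ran from 0.0211 to 0.0891 in the vehicle mice and from 0.127 to 1.85 in the FGF1 mice, with a median of 0.605 in the latter.

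On Day 5, FGF1 mice gave Ptgs2 values of 0.868 to 4.38 normalized counts with a median of 2.24. Non-diabetic vehicle mice gave 0.596 to 2.31 with a median of 1.32, and diabetic-labelled vehicle mice 0.997 to 1.36 with a median of 1.07. The groups overlapped, with 4 of 9 FGF1 mice above the highest non-diabetic vehicle mouse and 7 of 9 above the highest diabetic-labelled one. The log2 fold change was 0.84 against non-diabetic vehicle (−0.19 to 1.88, edgeR adjusted p = 0.449, exact permutation p = 0.073) and 1.14 against diabetic-labelled vehicle (0.09 to 2.19, adjusted p = 0.184, exact permutation p = 0.01). Neither passed over all genes. In a fit of the Day 5 libraries alone, which called 370 and 554 genes in place of 219 and 406, both passed, at 0.89 (adjusted p = 0.0213, and 0.0213 to 0.871 over the alternatives) and 1.19 (adjusted p = 0.00192, and 0.00192 to 0.586 over the alternatives). FGF1 mice 8 and 9 held the highest Ptgs2 values, 4.38 and 3.67, and the deepest libraries of the day, with 30009258 and 27922117 counts against 7695346 to 9739244 in the other 7 FGF1 mice. Without these 2 mice the log2 fold changes fell to 0.39 (adjusted p = 0.871) and 0.69 (adjusted p = 0.586). In the fit of Day 5 alone without them they were 0.40 (adjusted p = 0.284), which did not pass, and 0.69 (adjusted p = 0.0425), which did. The part of library depth in these values was not tested. The 2 comparisons share their FGF1 mice. Counts behind these values were low, from 5 to 22 per vehicle library.

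On Day 42, Ptgs2 read 1.94, 0.996, 1.56, 2.38 and 9.50 in the 5 FGF1 mice and 1.48, 1.17, 1.10, 1.37 and 1.41 in the 5 vehicle mice. Mouse 5, the library with high cortical and choroid plexus markers, held the highest value. Across groups the log2 fold change was 1.26 with all mice (0.23 to 2.29, edgeR adjusted p = 0.724, exact permutation p = 0.12) and 0.42 without mouse 5 (adjusted p = 1). The part of those other tissue markers in the value was not tested.

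Ptges encodes the inducible membrane prostaglandin E synthase that works beside cyclooxygenase 2. It read 5.11, 2.77, 5.10 and 5.39 normalized counts in the 4 Day 1 vehicle mice. In the 10 FGF1 mice it ran from 8.96 to 62.5 with a median of 30.1. All 10 were above the highest vehicle mouse, and mice 5, 8 and 10 were the highest at 62.5, 57.4 and 50.7. The log2 fold change was 2.84, a fold of 7.17 (2.22 to 3.46, edgeR adjusted p = 2.16e-10, exact permutation p = 0.001). Over the alternatives it stayed past the thresholds at 2.25 to 2.90, and at 2.67 to 2.95 with any 1 mouse left out.

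On Day 5, Ptges ran from 4.64 to 8.12 with a median of 6.42 in FGF1 mice, from 3.83 to 6.67 with a median of 5.35 in non-diabetic vehicle mice and from 4.94 to 7.73 with a median of 5.71 in diabetic-labelled vehicle mice. The 3 groups overlapped. The log2 fold change was 0.27 against non-diabetic vehicle (−0.28 to 0.82, edgeR adjusted p = 0.72) and 0.15 against diabetic-labelled vehicle (−0.39 to 0.68, adjusted p = 0.822). On Day 42 it read 4.79, 4.48, 6.72, 4.22 and 4.72 in FGF1 mice and 4.93, 5.12, 5.24, 5.75 and 6.18 in vehicle mice, a log2 fold change of −0.12 (−0.71 to 0.48, adjusted p = 1). The FGF1 effect on Ptges was smaller on Day 5 than on Day 1 by −2.57 on the log2 scale (−3.37 to −1.78, edgeR adjusted p = 1.73e-06), and smaller on Day 42 than on Day 1 by −2.96 (−3.80 to −2.12, adjusted p = 3.63e-07).

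Ptges2 encodes a membrane-associated prostaglandin E synthase found in many tissues. On Day 1 it read 19.1, 14.8, 21.6 and 25.5 in vehicle mice and 13.9 to 31.9 with a median of 25.8 in FGF1 mice. The groups overlapped, with 6 of 10 FGF1 mice above the highest vehicle mouse and 1 below the lowest. For Ptges2 the log2 fold change was 0.30 (0.05 to 0.55, edgeR adjusted p = 0.044, exact permutation p = 0.24), under the fold threshold. Its adjusted p ran from 0.0216 to 0.339 over the alternatives and from 0.00761 to 0.296 with 1 mouse left out, with log2 fold changes down to 0.15 and 0.18. On Day 5 the FGF1, non-diabetic and diabetic-labelled vehicle mice ran from 25.2 to 31.9, 26.6 to 31.8 and 27.4 to 35.1. The Day 42 FGF1 and vehicle mice ran from 15.7 to 25.7 and 16.2 to 25.7. The Day 5 and Day 42 log2 fold changes against vehicle were −0.08, −0.13 and 0.03, with adjusted p of 0.826, 0.548 and 1 in edgeR.

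Ptges3 encodes the cytosolic prostaglandin E synthase, also known as p23, a co-chaperone of Hsp90. It read 84.6, 117.6, 85.8 and 83.0 normalized counts in the 4 Day 1 vehicle mice and 98.8 to 157.4 with a median of 111.5 in the 10 FGF1 mice. Vehicle mouse 2 was the one high value of its group, and 2 of 10 FGF1 mice were above it. Its log2 fold change came to 0.29 (0.12 to 0.47, edgeR adjusted p = 0.00537, exact permutation p = 0.03, adjusted p of 0.00197 to 0.0647 over the alternatives), under the fold threshold. On Day 5 the 3 groups lay close together, at 130.3 to 142.5 in FGF1 mice, 122.3 to 137.9 in non-diabetic vehicle mice and 128.3 to 136.8 in diabetic-labelled vehicle mice. On Day 42 it ran from 69.1 to 84.5 in FGF1 mice and from 61.1 to 96.1 in vehicle mice. The Day 5 and Day 42 log2 fold changes against vehicle were 0.06, 0.04 and −0.08, none past the threshold.

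Ptgds encodes lipocalin-type prostaglandin D synthase, made in the leptomeninges, the choroid plexus and oligodendrocytes. It read 1246, 1134, 719.2 and 958.7 normalized counts in the 4 Day 1 vehicle mice. In the 10 FGF1 mice it ran from 192.0 to 1064 with a median of 546.3. Of the 10, 8 were below the lowest vehicle mouse, and mice 5 and 8 were inside the vehicle range. FGF1 against vehicle gave a log2 fold change of −0.85 (−1.64 to −0.07, edgeR adjusted p = 0.0693, exact permutation p = 0.033), not past the threshold over all genes. It passed in DESeq2 at −0.91 (adjusted p = 0.0368, and 0.0368 to 0.105 over the alternatives), and in edgeR without FGF1 mouse 5 at −1.01 or mouse 8 at −0.98.

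Ptgds varied widely between mice of 1 group, with a coefficient of variation of 22.7% to 52.2% over the 7 groups. On Day 5 it ran from 123.6 to 1117 in FGF1 mice, from 171.4 to 1088 in non-diabetic vehicle mice and from 374.8 to 1282 in diabetic-labelled vehicle mice. On Day 42 it read 1215, 911.7, 1516, 693.3 and 766.2 in FGF1 mice and 625.4, 712.5, 1122, 829.4 and 1567 in vehicle mice. The log2 fold changes were 0.08 and −0.26 on Day 5 against non-diabetic and diabetic-labelled vehicle and 0.07 on Day 42, with edgeR adjusted p of 0.97, 0.735 and 1.

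Hpgds encodes hematopoietic prostaglandin D synthase, in the brain a gene of microglia. It read 8.32, 11.1, 8.82 and 7.25 in the Day 1 vehicle mice and 6.21 to 15.5 with a median of 8.06 in the FGF1 mice. The highest value was that of mouse 1, the library of 1243280 counts, where it rests on 19 counts. For Hpgds the log2 fold change was −0.13 (−0.38 to 0.12, edgeR adjusted p = 0.419). On Day 5, Hpgds ran from 13.3 to 21.6 with a median of 16.5 in FGF1 mice and from 14.0 to 17.7 with a median of 14.9 in non-diabetic vehicle mice. It ran from 11.7 to 13.7 with a median of 13.1 in diabetic-labelled vehicle mice, below each non-diabetic vehicle mouse. The log2 fold change of FGF1 was 0.11 against non-diabetic vehicle (adjusted p = 0.735) and 0.35 against diabetic-labelled vehicle (0.13 to 0.57, edgeR adjusted p = 0.0353, exact permutation p = 0.00079, adjusted p of 0.0242 to 0.0862 with 1 mouse left out), with 8 of 9 FGF1 mice above the highest control and the fold under the threshold. On Day 42 it read 10.1, 9.19, 11.5, 10.9 and 10.6 in FGF1 mice and 10.9, 11.0, 14.5, 8.99 and 8.24 in vehicle mice, a log2 fold change of −0.03.

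**Figure D2:**
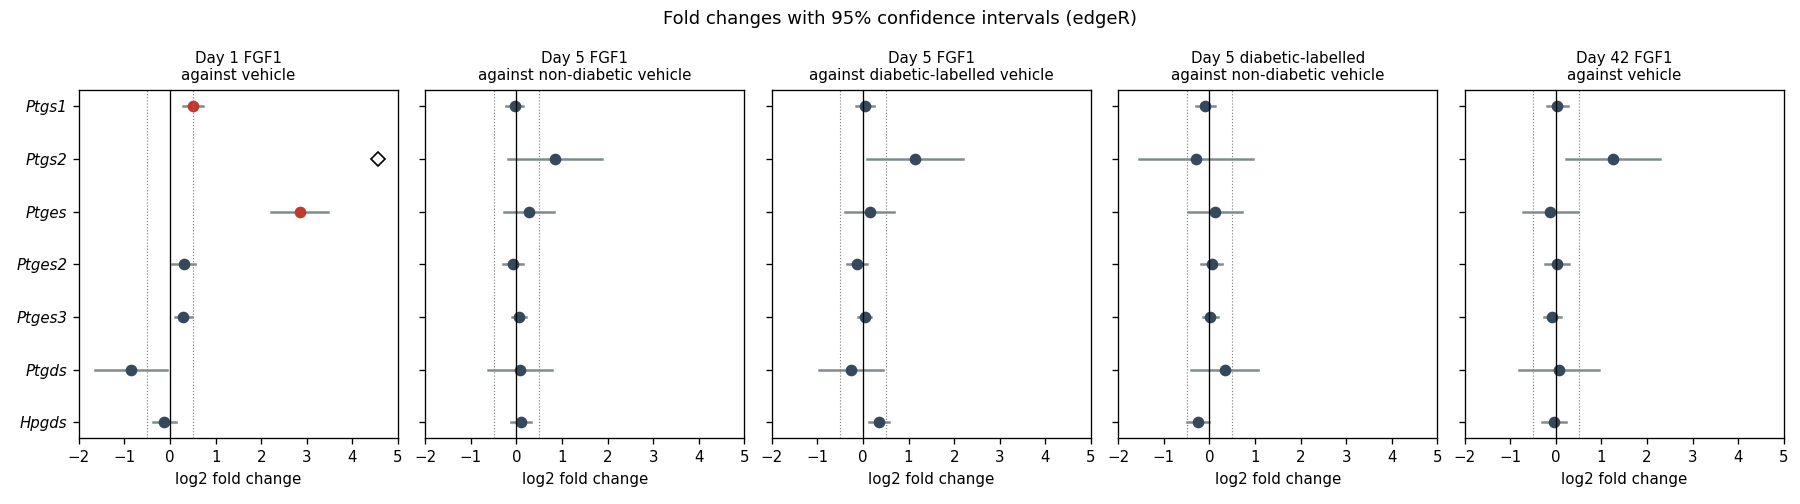
Each panel plots 1 comparison, with the log2 fold change of each member on the horizontal axis, bars for the 95% confidence interval from edgeR, dotted lines at −0.5 and 0.5, red points for the members past both thresholds and an open diamond without interval for Ptgs2 on Day 1, which was not tested. Ptgs1 at 0.51 and Ptges at 2.84 on Day 1 are the red points.

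On Day 5, 0 of 7 members passed the edgeR thresholds against non-diabetic vehicle, where 1.54% of all genes passed, 1.31% higher and 0.232% lower, and where the 2 groups did not overlap for 3.93%. At an unadjusted p under 0.05 the edgeR count was 0 of 7, beside 2348 of 14221 genes, and after adjustment DESeq2 and limma gave 0 of 7 as well. Against diabetic-labelled vehicle 0 of 7 passed, beside 2.85% of all genes, 2.36% higher and 0.499% lower, and 6.08% without overlap. There 2 of 7 members, Ptgs2 and Hpgds, had an unadjusted edgeR p under 0.05, beside 3097 of 14221 genes, and DESeq2 and limma called 0. Between the 2 vehicle groups 0 of 7 members and 0% of all genes passed in edgeR, and DESeq2 and limma called 0 genes. At an unadjusted edgeR p under 0.05 the count was 193 genes, 1 of them a member, Hpgds. Hpgds was the 1 member without overlap there, beside 0.0984% of all genes, with a log2 difference of −0.25 (−0.48 to −0.01, edgeR adjusted p = 1, exact permutation p = 0.00058, the smallest that 7 against 7 mice can give).

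On Day 42, 0 of 7 members and 0% of all genes passed in edgeR, and DESeq2 and limma called 0 genes. At an unadjusted edgeR p under 0.05 the count was 776 genes, 1 of them a member, Ptgs2. No member's groups failed to overlap, beside 0.267% of all genes. For the difference between the Day 5 and Day 1 effects of FGF1, 2 of 6 members passed, Ptges and Ptgs1, beside 15.8% of all genes. The Ptgs1 difference was −0.55 (−0.83 to −0.27, edgeR adjusted p = 0.0026), and it fell under the fold threshold at −0.39 after quantile normalization, at −0.47 without Day 1 vehicle mouse 3 and at −0.50 without Day 5 non-diabetic vehicle mouse 4. Without Day 1 vehicle mouse 4 the Ptges2 difference, −0.38, reached −0.51 and passed. Between Day 42 and Day 1, 1 of 6 passed, Ptges, beside 16.4% of all genes, and between Day 42 and Day 5, 0 of 7 in edgeR, beside 0.717%, with 0 members at an unadjusted p under 0.05, beside 1419 of 14221 genes, and 0 in DESeq2 and limma. The Day 42 minus Day 1 difference of Ptgs1 was −0.47 (adjusted p = 0.0175) and that of Ptges3 −0.37 (adjusted p = 0.0266), both under the fold threshold. The adjusted p of the Ptgs1 difference reached 0.17 after quantile normalization and 0.0582 without Day 1 vehicle mouse 3. For Ptges3 it reached 0.0742 in DESeq2, 0.0749 with DESeq2 size factors and 0.0745 without Day 42 vehicle mouse 1, and it was also above 0.05 without Day 1 vehicle mouse 1, 3 or 4. Ptgs1 passed without Day 1 FGF1 mouse 6 at −0.50 or mouse 7 at −0.51, without Day 1 vehicle mouse 2 at −0.53, without Day 42 FGF1 mouse 5 at −0.55 and without Day 42 vehicle mouse 5 at −0.52. As a description, the effect on Ptgs2 differed from Day 1 by −3.72 on Day 5 and −3.31 on Day 42.

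Among the 10 Day 1 FGF1 mice, Ptges and Ptgs2 ranked alike. The correlation of their log2 values was r = 0.94 (rho = 0.93, n = 10), and r = 0.88 without the 2 mice farthest from the medians. Ptges and Ptgds were also high in the same mice (r = 0.88, rho = 0.88), although FGF1 mice had higher Ptges and lower median Ptgds than vehicle mice. Among the 9 Day 5 FGF1 mice, r between Ptges and Ptgs2 was 0.04. Over the 47 libraries with each group's mean subtracted, Ptges2 and Ptges3 ran opposite to each other, with r = −0.66, and −0.75 without Day 1 FGF1 mouse 1. These mice share a day, a preparation and a treatment, and the correlations are given as descriptions.

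**Figure D3:**
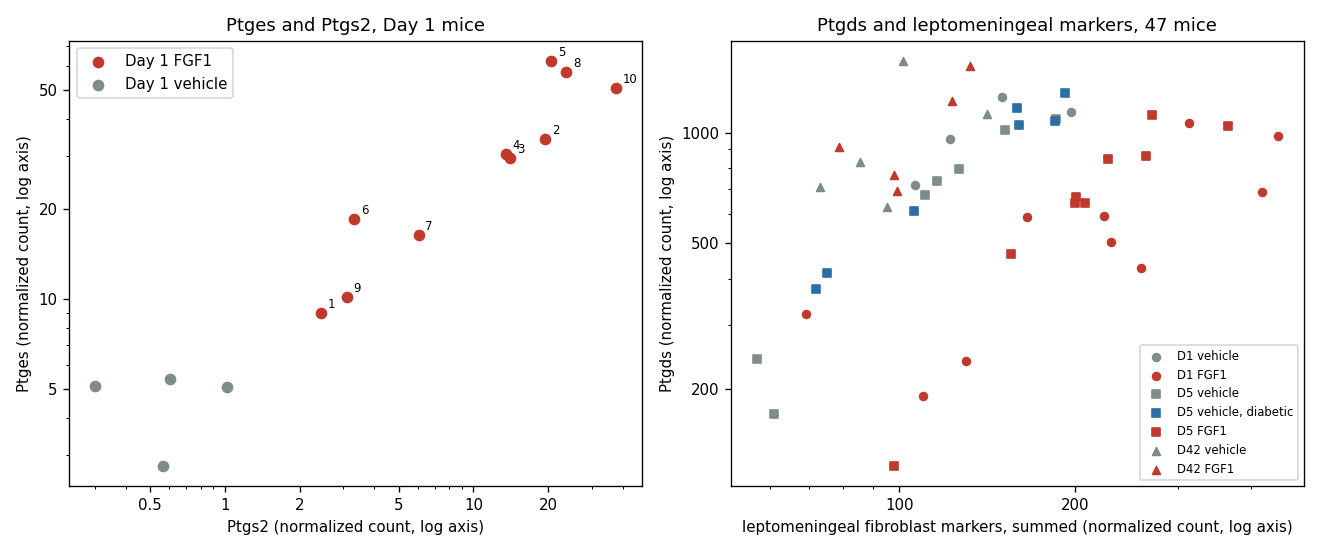
The left panel plots Ptges against Ptgs2 in normalized counts on log axes for the 14 Day 1 mice, with the FGF1 mice numbered, and the right panel plots Ptgds against the summed markers of leptomeningeal fibroblasts for all 47 mice, coloured by treatment and shaped by day. Ptgs2 and Ptges rise together among the red Day 1 points, r = 0.94 over 10 mice.

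Within some groups of mice, summed markers of leptomeningeal fibroblasts, perivascular macrophages, and pericytes and smooth muscle varied with Ptges, Ptgs2 or Ptgds. These pairs are drawn from correlations of all members with marker sums in the larger groups, and they are descriptions with no test. The 9 leptomeningeal fibroblast markers were all in the table, Dcn the most abundant, and their sum was 149.8, 197.0, 106.6 and 122.0 in Day 1 vehicle mice and 69.3 to 445.2 with a median of 227.2 in Day 1 FGF1 mice. Gene by gene the list was split, with 3 of 9 higher and 3 of 9 lower on Day 1, beside 11.5% and 8.05% of all genes, and a median log2 fold change of 0.04. Among the 10 FGF1 mice this sum followed Ptges (r = 0.91), Ptgs2 (r = 0.82) and Ptgds (r = 0.80). On Day 5 it followed Ptgds with r = 0.94 in 9 FGF1 mice, 0.97 in 7 non-diabetic and 0.99 in 7 diabetic-labelled vehicle mice. The Day 5 sum ran from 97.8 to 366.4 with a median of 208.0 in FGF1 mice, from 57.0 to 185.4 with a median of 116.1 in non-diabetic vehicle mice and from 71.9 to 192.0 with a median of 159.4 in diabetic-labelled ones. Of its 9 genes, 4 were higher against non-diabetic and 1 against diabetic-labelled vehicle, beside 1.31% and 2.36% of all genes, while Ptgds had log2 fold changes of 0.08 and −0.26 and did not pass. Of perivascular macrophage markers, 4 of 6 were in the table, without Pf4 and Cbr2, and Mrc1 was the most abundant. Their sum was 12.0, 22.5, 8.75 and 11.1 in Day 1 vehicle mice and 10.6 to 48.8 with a median of 23.1 in Day 1 FGF1 mice, where it followed Ptgs2 with r = 0.86 and Ptges with r = 0.88. Of the 4 genes, 3 were higher on Day 1, beside 11.5% of all genes, with a median log2 fold change of 0.84. On Day 5 this sum ran from 18.4 to 37.4 with a median of 25.6 in FGF1 mice. Its medians were 16.5 and 16.7 in the non-diabetic and diabetic-labelled vehicle mice. Of the 4 genes, 0 and 1 were higher in that order, beside 1.31% and 2.36% of all genes, with median log2 fold changes of 0.73 and 0.57. The 6 pericyte and smooth muscle markers, Rgs5 the most abundant, summed to 129.7 to 197.2 in Day 1 vehicle and 106.7 to 163.4 in Day 1 FGF1 mice. Among those FGF1 mice the sum followed Ptgs2 with r = 0.82 and Ptges with r = 0.86. The part of these markers in the members' values was not tested, and in bulk samples fewer cells of a type and less RNA per cell cannot be told apart.

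Other cell types were read from the same table, and the counts below stand beside 11.5% higher and 8.05% lower among all genes on Day 1, 1.31% and 0.232% on Day 5 against non-diabetic vehicle, and 2.36% and 0.499% against diabetic-labelled vehicle. Of the 12 hypothalamic neuron markers, 2 were higher and 3 lower on Day 1, with a median log2 fold change of −0.16. Their sum ran from 1298 to 1737 in Day 1 vehicle mice and from 919.8 to 1362 in Day 1 FGF1 mice. Choroid plexus markers, 4 of 6 in the table without Ttr and Folr1 and with Clic6 the most abundant, summed to 45.4 to 58.5 in Day 1 vehicle mice and 21.0 to 38.4 in Day 1 FGF1 mice. Mature oligodendrocyte markers, 8 of 8 in the table, had 7 of 8 genes lower on Day 1 and, the other way, 3 of 8 higher and 0 lower on Day 5 against each vehicle group. Their sum had a mean of 2887 in Day 1 FGF1 mice against 4870 in vehicle mice, and of 7071 in Day 5 FGF1 mice against 5280 and 4944 in the non-diabetic and diabetic-labelled vehicle mice. Microglia markers, 8 of 8 in the table, had 5 higher and 1 lower on Day 1, 0 on Day 5 against non-diabetic vehicle in edgeR, and 5 higher against diabetic-labelled vehicle. Their median log2 fold changes on Day 5 were 0.36 and 0.53 in that order. The sum ran from 312.8 to 380.9 in FGF1 mice and from 228.5 to 266.2 in diabetic-labelled vehicle mice. In non-diabetic vehicle mice it ran from 251.4 to 271.7 apart from mouse 2 at 387.6. Astrocyte markers, 7 of 7 in the table with Aldoc the most abundant, summed to 3062 to 3258 in Day 1 vehicle mice and 3730 to 4698 in Day 1 FGF1 mice, although 1 gene was higher and 2 were lower. On Day 5 they summed to 2988 to 3295 in FGF1 mice against 2432 to 2582 and 2446 to 2618 in the non-diabetic and diabetic-labelled vehicle mice, with 2 of 7 higher against each. Of the ependymal markers, 3 of 6 were lower on Day 1. Tanycyte markers, 7 of 8 in the table, had 1 higher and 1 lower on Day 1. Of the oligodendrocyte precursor markers, 1 of 6 was lower on Day 1, and on Day 5 2 were higher against non-diabetic and 3 against diabetic-labelled vehicle, with sums of 511.8 to 645.1 in FGF1 mice against 333.0 to 401.3 and 322.3 to 354.9. The 7 endothelial markers, Flt1 the most abundant, had 2 higher and 1 lower on Day 1. Neutrophil and monocyte markers had 1 of 7 in the table, Ccr2, which was called higher on Day 1 with a log2 fold change of 1.69. It read 0.246 to 0.988 in vehicle mice and 0 to 4.71 in FGF1 mice, and its 1 library at 0 counts was Day 1 FGF1 mouse 1. Of the 6 mast cell markers none was in the table, and mast cells were not analysed here. Their part in the members' values was not tested.

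The genes that vary most like each member were found over the 47 libraries with group means subtracted, among 13278 genes with at least 50 counts on average. For Ptgs2 they were Has1 (r = 0.78), which makes hyaluronan, Plau (0.77), a plasminogen activator, and Star (0.73), a cholesterol carrier. For Ptges they were Has1 (0.85), Prg4 (0.85) and Star (0.84). For Ptgds they were Slc6a12 (0.92), a betaine and GABA transporter, Aebp1 (0.91) and Cdh1 (0.91), the epithelial cadherin. Ptges3 varied most like Ppid (0.93), Hsp90b1 (0.91), both chaperone genes, and Naa50 (0.90). The closest genes to Ptgs1 reached no more than 0.53, Tmsb4x, 0.52, Tgfa, and 0.51, Vti1b. Ptges2 was closest to Pard6a (0.88), Sh3gl1 (0.86) and Shf (0.85), and Hpgds to Cntln (0.71), Dmc1 (0.70) and Adra1a (0.66). Without Day 1 FGF1 mouse 1 these fell to ranks 61, 170 and 23 for Ptges2 and 10, 5 and 237 for Hpgds, while those of Ptgs2 kept ranks 1, 2 and 3.

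The lists of related genes below hold both the older and the newer symbol of some genes, Pla2g16 and Plaat3, Fam213b and Prxl2b, Zadh2 and Ptgr3, and the table has the older ones, so shares of a list count symbols. Upstream of the cyclooxygenases, 15 of 26 listed symbols of arachidonate release were in the table. On Day 1, 1 was higher and 3 were lower, 4 of 15 called beside 19.5% of all genes, with a median log2 fold change of −0.02 beside 0.01. For this and the lists below, 11.5% of all genes were higher and 8.05% lower on Day 1, 1.31% and 0.232% on Day 5 against non-diabetic vehicle, and 2.36% and 0.499% against diabetic-labelled vehicle. Pla2g4a, the cytosolic phospholipase that frees arachidonic acid, rose from 2.21 to 3.10 normalized counts in vehicle mice to 0.815 to 14.9 in FGF1 mice, the lowest being mouse 1 with 1 count, a log2 fold change of 1.61 (edgeR adjusted p = 2.20e-06). Over the alternatives that kept Pla2g4a in the fit, its value went down to 1.02, still past the thresholds. A minimum of 10 counts in every library took it out of the fit. Pla2g4e at −1.29, Pla2g16 at −0.82 and Pla2g7 at −0.71 fell. Without vehicle mouse 4, the number higher was 3 in place of 1. On Day 5, Pla2g4e was the 1 gene past the thresholds against non-diabetic vehicle, at −0.61 (edgeR adjusted p = 0.00445), with 2 genes past them without vehicle mouse 2. Over the alternatives the number lower ran from 0 to 2 and changed under 6 of 9, and the number higher ran from 0 to 1 and changed under 2 of 9. Against diabetic-labelled vehicle Pla2g3 at −0.83 (adjusted p = 0.00182) and Pla2g4e at −0.74 (adjusted p = 0.000224) were lower, and 1 gene was higher without diabetic-labelled vehicle mouse 1 and under 3 of 8 alternatives.

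Of the symbols of other terminal prostanoid enzymes, 9 of 12 were in the table, 3 of them higher and 1 lower on Day 1, with a median of 0.15. Akr1b8, an aldo-keto reductase, rose from 1.64 to 3.90 in vehicle mice to 12.2 to 37.0 in FGF1 mice (log2 fold change 3.53, edgeR adjusted p = 2.12e-16), and Tbxas1, thromboxane synthase, rose by 1.23. Both also passed on Day 5 against each vehicle group, at 0.87 and 0.67 against the non-diabetic one and 0.92 and 0.61 against the diabetic-labelled one. The Day 5 call of Akr1b8 against non-diabetic vehicle (adjusted p = 0.0454) was lost without FGF1 mouse 1, 2, 5, 6, 7, 8 or 9, at 0.81, 0.88, 0.89, 0.80, 0.88, 0.88 and 0.87, and without vehicle mouse 2, 3, 4, 5 or 7, at 0.81, 0.88, 0.79, 0.77 and 0.94. Without the 2 deepest FGF1 libraries it was lost as well, at 0.88 (adjusted p = 0.0954). Cbr3 at 0.62 lost its Day 1 call after quantile normalization at 0.45, and without vehicle mouse 1, 2 or 3, at 0.64, 0.57 and 0.54, and Gstm2 at −0.70 after quantile normalization at −0.72 (adjusted p = 0.0586) and without vehicle mouse 2, at −0.55. Ptgis, prostacyclin synthase, had a log2 fold change of 0.15 on Day 1.

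Of the prostanoid receptors, 4 of 9 were in the table, without Ptger1, Ptgdr, Ptgdr2, Ptgir and Tbxa2r. Their median log2 fold change on Day 1 was 0.08. Ptger2, Ptger3 and Ptger4, which bind prostaglandin E2, did not pass, with log2 fold changes of 0.03, 0.13 and 0.38, with edgeR adjusted p of 0.92, 0.676 and 0.0848. The sign of Ptger2 was the opposite in DESeq2, with DESeq2 size factors and after quantile normalization. Ptger4 read 1.78 to 2.96 normalized counts in vehicle mice and 1.16 to 4.08 in FGF1 mice.

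Of the symbols for prostaglandin transport and inactivation, 10 of 11 were in the table, 2 higher and 3 lower on Day 1, with a median of 0.06. Hpgd, which inactivates prostaglandin E2, rose from 2.88 to 6.33 in vehicle mice to 12.2 to 25.4 in FGF1 mice, without overlap, a log2 fold change of 2.02 (edgeR adjusted p = 1.73e-11). Slc22a6, an organic anion transporter that is also among the leptomeningeal markers, fell by 3.73 on the log2 scale, and the related Slc22a8 was 2.30-fold lower. The smallest log2 fold change of Slc22a6 over the alternatives was −2.41. Slco2a1, the prostaglandin transporter, at 0.88 lost its call after quantile normalization at 0.47, without FGF1 mouse 8 or 10, at 0.71 and 0.77, and without each of the 4 vehicle mice in turn, at 0.77, 0.94, 0.93 and 0.91. Slco4a1 at −0.58 lost it without vehicle mouse 1, at −0.45.

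Of the lipoxygenase and leukotriene genes, which draw on the same arachidonic acid, 10 of 18 were in the table, 3 higher and 1 lower on Day 1, with a median of 0.02. Alox5, arachidonate 5-lipoxygenase, rose by 1.29, Cysltr1 by 1.04 and Alox5ap by 0.85, and Aloxe3 fell by 0.62. Over the alternatives that kept them in the fit, the log2 fold change went down to 0.70 for Alox5 and 0.56 for Cysltr1, both still past the thresholds. A minimum of 10 counts in every library took both out of the fit. Of the regulators known to act on Ptgs2 transcription or mRNA, 25 of 30 were in the table, without Il1a, Il1b, Il6, Tnf and Il1rn. The list does not separate regulators that raise Ptgs2 from those that lower it, so its counts give no direction for Ptgs2. On Day 1, 17 of 25 were higher, beside 11.5% of all genes, and 0 were lower, with a median of 0.75. Like the other lists, this one was chosen with earlier results of these data known, and the count is a description. The number higher ran from 11 to 17 over the alternatives, 11 being with at least 10 counts in every library, and from 14 to 17 with 1 mouse left out. Tnfrsf1a, a receptor for tumor necrosis factor, rose from 11.1 to 14.8 in vehicle mice to 69.8 to 109.5 in FGF1 mice (log2 fold change 2.77, edgeR adjusted p = 3.02e-21), Junb rose by 2.50 and Nfkb2 by 2.39. The smallest log2 fold change of Junb over the alternatives was 1.58. On Day 5 against non-diabetic vehicle 3 were higher, Tlr4 at 0.57, Zfp36l1 at 0.56 and Zfp36l2 at 0.55, beside 1.31% of all genes. With the vehicle groups merged, Zfp36l1 fell under the fold threshold at 0.48 and Zfp36l2 at 0.49. Against diabetic-labelled vehicle Tlr4 was the 1 gene higher, at 0.61 (edgeR adjusted p = 0.0164). The Tlr4 call against non-diabetic vehicle (adjusted p = 0.0428) was lost without FGF1 mouse 3, 4, 5, 6 or 8, at 0.55, 0.53, 0.57, 0.51 and 0.58, and without vehicle mouse 3, 4, 5 or 7, at 0.60, 0.50, 0.52 and 0.55. Without the 2 deepest FGF1 libraries it was 0.62 with an adjusted p of 0.05002.

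The 7 members matched 7 promoter windows in the RefSeq table of build GRCm38.p6, each 250 bases before to 50 after the gene's start. Ptgs1, Ptges, Ptges2 and Ptgds lie on chromosome 2, Ptgs2 on chromosome 1, Ptges3 on chromosome 10 and Hpgds on chromosome 6. Each window was searched on both strands for 9 short motifs, and the share of all 32817 windows that hold each is given beside it. The GC box, spelled GGGCGG and held by 35.6% of windows, was found in Ptgs2, Ptges and Ptges3. The E-box, spelled CACGTG (7.15%), was found in Ptgs2 and Ptges2. A palindrome bound by C/EBP factors, spelled TTGCGCAA (0.183%), was found in Ptgs2. The AP-1 motif, spelled TGANTCA (7.81%), and the NF-kB site (4.50%) were found in Ptgds. The TATA box, spelled TATAAA (13.6%), was in none of the 7 windows, and neither was the CCAAT box (37.4%). The cAMP response element was also in none, whether spelled TGACGTCA (1.79%) or as the variant TGACGCAA (0.491%). A match is a description of the letters and not a binding site.

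The promoters of Ptgs2 (chr1:150099781-150100080, plus strand) and Ptges (chr2:30903248-30903547, minus strand) are shown because both genes were higher in all 10 FGF1 mice on Day 1 and ranked alike among them. They are written 5′ to 3′ from RefSeq, build GRCm38.p6, with motif matches in capitals, GGGCGG, TTGCGCAA and CACGTG in Ptgs2 and GGGCGG in 2 places in Ptges.
Ptgs2: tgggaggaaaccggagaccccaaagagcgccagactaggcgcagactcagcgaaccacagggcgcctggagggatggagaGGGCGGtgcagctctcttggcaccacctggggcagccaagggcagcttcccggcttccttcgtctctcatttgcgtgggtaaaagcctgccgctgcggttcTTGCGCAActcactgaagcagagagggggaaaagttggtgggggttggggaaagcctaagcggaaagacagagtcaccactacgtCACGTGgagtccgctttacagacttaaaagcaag
Ptges: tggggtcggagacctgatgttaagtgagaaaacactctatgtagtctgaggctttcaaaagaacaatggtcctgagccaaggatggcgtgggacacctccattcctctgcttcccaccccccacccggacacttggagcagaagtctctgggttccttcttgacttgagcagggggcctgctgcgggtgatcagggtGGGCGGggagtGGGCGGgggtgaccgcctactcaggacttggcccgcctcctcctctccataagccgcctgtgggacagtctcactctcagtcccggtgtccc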

How the data were processed

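The authors deposited raw counts per gene for 47 libraries. Per the labels, reads were aligned with STAR; the build is written GRCh38, a human name, and the counting program is not stated. Groups follow the labels. All 14221 genes were fitted in edgeR 4.0.16 under R 4.3.3 (quasi-likelihood F test, TMM factors, 1 mean for each of 7 groups, Benjamini-Hochberg adjustment over all genes). DESeq2 1.42.0, limma 3.58.1 with quantile normalization, other filters on low counts and leaving out each mouse were alternatives. The code was tested on simulated data. Two-sided exact permutation tests used log2 of the normalized count plus 0.5. Levels per kilobase used exon lengths of GENCODE annotation. The members and lists were chosen with earlier results of these data known. Genes named were the members, from each pathway list at most the 3 called genes with the largest fold change per direction in a comparison of FGF1 with vehicle, key genes whether called or not, and the 3 genes most correlated with each member.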

Additional observations from a re-analysis of the deposited data

Results flagged for a closer look

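Several mice lay far from the rest of their group by Dixon's criterion, which marks about 1 group in 20 by chance. It marked 6 of 49 groups for the members and 11 of 91 for the summed markers of cell types. Among the members, Ptgs2 read 9.50 in Day 42 FGF1 mouse 5, and Ptges read 2.77 in Day 1 vehicle mouse 2 and 6.72 in Day 42 FGF1 mouse 3. Ptges3 read 117.6 in Day 1 vehicle mouse 2 and 157.4 in Day 1 FGF1 mouse 10. Hpgds read 15.5 in Day 1 FGF1 mouse 1, the library with the lowest total.

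Among the marker sums, cortical and hippocampal excitatory neurons read 817.7 and choroid plexus epithelium 204.5 in Day 42 FGF1 mouse 5. The excitatory neuron sum read 95.8 in Day 5 non-diabetic vehicle mouse 1 and 104.6 in diabetic-labelled vehicle mouse 1, where astrocytes read 2618 and mature oligodendrocytes 6355. Astrocytes read 3062 in Day 1 vehicle mouse 3, and microglia 387.6 in Day 5 non-diabetic vehicle mouse 2. Among Day 5 FGF1 mice, hypothalamic neurons read 450.5 in mouse 9, ependymal cells 100.3 in mouse 8 and endothelial cells 234.3 in mouse 5.

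The FGF1 effect differed between days for 3 members in edgeR, with an adjusted p under 0.05. Day 5 minus Day 1, the difference of log2 fold changes was −0.55 for Ptgs1 and −2.57 for Ptges. Day 42 minus Day 1, it was −0.47 for Ptgs1, −2.96 for Ptges and −0.37 for Ptges3. The adjusted p of the last and of the Ptgs1 value beside it rose above 0.05 under some alternatives, to at most 0.0749 for Ptges3 and 0.17 for Ptgs1.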

How the results depend on the processing

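Of 1399 member values recomputed under an alternative, 1335 kept their direction and their side of the threshold, 13 fell short of it, 12 newly passed it, 37 changed sign and 2 moved by more than the spread between mice. Of the 1399, 1050 leave out a mouse. The differences between Day 42 and Day 1, leaving out mice for all differences between days, the counts of members for those differences, the pathway lists, and leaving out the 2 deepest FGF1 libraries of Day 5 against diabetic-labelled vehicle or in a fit of Day 5 alone were alternatives chosen after seeing the data. Leaving out the filter on low counts removed nothing and gave the reported values. Ptgs2 has no value with at least 10 counts in every library. No paired analysis was possible because the replicate numbers follow the order of deposition and no label pairs mice between groups. Where a result changed, the cause was not tested.

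On Day 1, the number of members past the thresholds was 1 with DESeq2 size factors (beside 2789 of 14221 genes), 1 after quantile normalization (2211 of 14221), 1 with at least 10 counts in every library (1582 of 10973) and 4 of 6 with no threshold on the fold change, beside 6396 of 14221 genes. The log2 fold change of Ptgs1 was 0.46 in DESeq2, 0.46 with DESeq2 size factors, 0.35 after quantile normalization and 0.49 with the count minimum. Ptgs2 read 2.87 after quantile normalization and Ptgds −0.91 in DESeq2. Ptger2 read −0.023 in DESeq2, −0.017 with DESeq2 size factors and −0.14 after quantile normalization.

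On Day 5 against non-diabetic vehicle, the Day 5 libraries alone gave 1 member, Ptgs2 at 0.89, and called 370 of 14221 genes in place of 219. With the vehicle groups merged, Ptgs1 read 0.0019 and Ptgds −0.10. Without the 2 deepest FGF1 libraries Ptgs2 read 0.39, and in a fit of Day 5 alone without them 0.40, where Ptgs1 read 0.0018. Against diabetic-labelled vehicle the count was 1 with the Day 5 libraries alone, Ptgs2 at 1.19 (beside 554 of 14221 genes in place of 406), 1 with those libraries without the 2 deepest, Ptgs2 at 0.69 (549 of 14221), and 1 of 7 with no threshold on the fold change, beside 1310 of 14221 genes. On Day 42, Hpgds read 0.0022 after quantile normalization. For Day 5 minus Day 1, quantile normalization gave a count of 1 (beside 1972 of 14221 genes), Ptgs1 at −0.39 and Ptgs2 at −2.24. For Day 42 minus Day 5, Ptgds read 0.015 in DESeq2 and 0.016 with DESeq2 size factors. For Day 42 minus Day 1, 3 of 6 members passed with no threshold on the fold change, beside 3623 of 14221 genes.

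With any 1 mouse left out, the Day 1 count ran from 1 to 2, Ptgs1 from 0.43 to 0.57, Ptgds from −1.01 to −0.74, Ptger2 from −0.14 to 0.34 and Ptger3 from −0.054 to 0.26. On Day 5 against non-diabetic vehicle, Ptgs1 ran from −0.089 to 0.0094 and Ptgds from −0.092 to 0.23. On Day 42, Ptgs1 ran from −0.047 to 0.082, Ptges2 from −0.051 to 0.14, Ptges3 from −0.16 to 0.0016, Ptgds from −0.12 to 0.31 and Hpgds from −0.11 to 0.10. For Day 5 minus Day 1, the count ran from 1 to 3, Ptgs1 from −0.61 to −0.47 and Ptges2 from −0.51 to −0.25. For Day 42 minus Day 5, Ptgs1 ran from −0.0043 to 0.12, Ptgs2 from −0.42 to 0.62 and Ptgds from −0.19 to 0.23. For Day 42 minus Day 1, the count ran from 1 to 2, Ptgs1 from −0.55 to −0.39 and Hpgds from −0.021 to 0.23.

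The number of genes called in the pathway lists also moved. On Day 1 the minimum of 10 counts in every library, which takes genes with low counts out of the fit, lowered the number higher from 17 to 11 for the regulators of Ptgs2, from 3 to 0 for the other terminal enzymes and for the lipoxygenase genes, from 2 to 1 for transport and inactivation and from 1 to 0 for arachidonate release. Over the Day 1 alternatives the number lower ran from 1 to 3 for transport and inactivation. It ran from 0 to 1 for the other terminal enzymes and from 2 to 3 for arachidonate release. On Day 5 against non-diabetic vehicle, the number of arachidonate release genes that were lower was 1, and 0 to 2 over the alternatives. The lipoxygenase genes had 0 higher and 0 lower on Day 5 against diabetic-labelled vehicle in edgeR, and 0 to 1 in each direction over the alternatives and with 1 mouse left out. Against non-diabetic vehicle the number of them higher went from 0 to 1 under 4 of 9 alternatives. The number of regulators higher on Day 5 against diabetic-labelled vehicle was 1, ran from 0 to 2 and changed under 3 of 8 alternatives. After quantile normalization 1 regulator was lower against each vehicle group, in place of 0. The other terminal enzymes fell from 2 higher to 0 against each vehicle group with at least 10 counts in every library, and to 1 against non-diabetic vehicle without the 2 deepest FGF1 libraries.

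Ptgs2 rests on low counts in some libraries, with 5 to 22 counts in the Day 5 vehicle libraries and 3 counts in Day 1 FGF1 mouse 1. Day 1 has 4 vehicle mice, and without mouse 3 of them Ptgs1 does not pass the fold threshold.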
